A study of Homo sapiens with 19 samples.

Results

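The replication-dependent histone genes are the 68 genes in the deposited table whose symbols are H2AC, H2BC, H3C or H4C with a number, or H1-1 to H1-5. They were chosen by symbol alone from 78894 genes and hold 5 H1, 17 H2A, 18 H2B, 13 H3 and 15 H4 genes. RNA had been measured in 19 libraries of differentiated HepaRG cells, a human hepatic carcinoma line that matures into hepatocyte-like and biliary-like cells. Ribosomal RNA was depleted and no poly(A) selection is named in the labels' protocols, so that RNAs without a poly(A) tail can be counted.

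Batch 1 held 3 libraries of cells given a negative control siRNA (siNC), 3 given siRNA to ADAR and 3 given siRNA to ADARB1, each transfected at 20 nM. ADAR and ADARB1 are adenosine deaminases that edit double-stranded RNA. Batch 2 held 3 siNC libraries, 2 libraries with 1000 U/mL IFNa, a type I interferon, 3 with 1 µM BX795, an inhibitor of the kinases TBK1 and IKK epsilon, and 2 with BX795 and the ADAR siRNA. IFNa and BX795 were added on the day of transfection and kept on, and the medium was changed at 24 h and 48 h. The siNC and the ADAR siRNA of batch 2 were also transfected at 20 nM. All groups are of the same line, and each knockdown used a single siRNA. The sources used here do not say whether control siRNA was also transfected in the IFNa and BX795 groups, nor whether replicates were separate cultures. The p-values therefore measure only the spread between libraries. Groups were compared within a batch, and levels (CPM, counts scaled to the library total with TMM factors) were scaled separately in each batch.

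Histones H2A, H2B, H3 and H4 form the core around which DNA is wrapped, and H1 binds the DNA between cores. The replication-dependent genes are transcribed mainly while DNA is copied in S phase. Their mRNAs normally end in a short stem-loop bound by the protein SLBP instead of a poly(A) tail, and are degraded when DNA synthesis stops. Some of these genes also make polyadenylated mRNA, which is described mostly in cells that have stopped dividing.

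The stem-loop is shown here because it defines this kind of mRNA and because the members that departed from the rest in batch 2 carry it too. A search of GENCODE v29 transcripts (GRCh38) for a 6-base stem around a 4-base loop found it in 27 of the 64 members that matched a transcript. Many of the other models hold only coding sequence, so the absence of a match says only that the letters are not in the model. The 16 bases of stem and loop are in capitals and the 5 flanking bases on each side in lower case, written as DNA.
H2AC8, chr6:26217417-26217432, plus strand: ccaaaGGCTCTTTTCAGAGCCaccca
H3C10, chr6:27810516-27810531, plus strand: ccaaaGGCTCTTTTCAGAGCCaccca
H2BC21, chr1:149886188-149886203, minus strand: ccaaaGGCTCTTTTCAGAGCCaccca
H2BC4, chr6:26123472-26123487, minus strand: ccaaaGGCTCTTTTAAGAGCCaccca
H4C2, chr6:26026901-26026916, minus strand: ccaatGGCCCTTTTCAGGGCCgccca
H4C14, chr1:149833032-149833047, plus strand: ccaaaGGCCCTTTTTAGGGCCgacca
The stretches of H2AC8, H3C10 and H2BC21 are the same in every letter. The genes differ in what follows. In the RefSeq annotation (GRCh38.p14) H2AC8 and H3C10 end 5 bases past the stem-loop, whereas H2BC21 extends 1729 bases past it and H2BC4 extends 10302 bases past it. A RefSeq span of 1000 bases or more was found for 8 members: H2BC4, H2BC5, H2BC12, H2BC18, H2BC21, H3C4, H3C6 and H4C15.

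Promoters are shown for members that moved in the results below, as the 120 bases before the RefSeq start, in the direction of the gene. Capitals mark on either strand the TATAAA box, bound by the general transcription machinery. They also mark the CCAAT box, which the factor NF-Y binds. The octamer ATGCAAAT, bound by POU2F1, is marked in the same way. Where a motif lies on the opposite strand its reverse complement is in capitals.
H3C2, chr6:26032100-26032219, minus strand: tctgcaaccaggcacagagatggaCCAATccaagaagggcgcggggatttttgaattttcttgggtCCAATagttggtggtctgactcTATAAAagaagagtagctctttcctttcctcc
H2AC17, chr6:27893186-27893305, minus strand: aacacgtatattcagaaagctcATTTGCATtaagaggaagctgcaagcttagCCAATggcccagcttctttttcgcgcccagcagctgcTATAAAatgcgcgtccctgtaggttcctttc
H2BC17, chr6:27893305-27893424, plus strand: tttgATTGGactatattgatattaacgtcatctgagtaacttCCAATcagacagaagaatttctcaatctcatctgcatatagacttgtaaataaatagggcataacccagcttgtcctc
H4C4, chr6:26189113-26189232, minus strand: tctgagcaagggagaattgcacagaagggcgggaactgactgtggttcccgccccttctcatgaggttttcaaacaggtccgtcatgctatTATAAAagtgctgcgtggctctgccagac
H2BC21, chr1:149886683-149886802, minus strand: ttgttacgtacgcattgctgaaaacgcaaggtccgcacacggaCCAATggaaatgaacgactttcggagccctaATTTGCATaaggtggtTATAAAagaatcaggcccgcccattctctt
H2AC17 and H2BC17 lie head to head, so their promoters adjoin. Over the 250 bases before the start, CCAAT was found in 53 of the 63 members with a RefSeq promoter (84.1%) and in 33% of all 27305 promoters. It was present in all 5 H1, 16 H2A, 18 H2B and 11 H3 promoters, but in 3 of 13 H4 promoters. TATAAA was found in 42 of 63 (66.7%, against 11.1% of all promoters). The octamer was found in 26 of 63 (41.3%, against 1.66%): 14 of 18 H2B, 11 of 16 H2A, 1 of 11 H3, and none of 5 H1 and 13 H4 promoters. The H3 promoter is that of H3C4, whose RefSeq span runs over H2AC7 to the same start, so that it is the H2AC7 promoter counted again, and reads of both genes may not be told apart. Head-to-head H2A and H2B genes, such as H2AC17 with H2BC17, H2AC11 with H2BC11 and H2AC6 with H2BC4, start less than 250 bases apart. The searched bases of such genes overlap almost wholly, so that 1 motif is counted for both genes. A match is a description of the letters and not of binding.

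Across the series, total counts per library ran from 42.7 to 77.1 M in batch 1 and from 13.1 to 34.7 M in batch 2. The targeted genes followed their labels. ADAR stood at 239 to 241 CPM in siNC and 56.0 to 65.1 CPM after ADAR siRNA in batch 1, and at 273 to 302 CPM with BX795 and 56.1 to 59.9 CPM with BX795 and ADAR siRNA. ADARB1 stood at 28.7 to 30.8 CPM in siNC and 9.41 to 10.4 CPM after ADARB1 siRNA. Hepatocyte markers (10 genes, such as ALB and HNF4A) summed to 48902 to 69415 CPM in batch 1 and 10276 to 17281 CPM in batch 2. The 4 endothelial markers never summed to more than 2 CPM. The 3 batch 2 controls stood apart from the treated libraries in base composition. Their GC trend (the log2 level of GC-rich minus that of AT-rich genes, centred within a batch) was 0.26 to 0.99, against -0.57 to 0.08 in the 7 treated libraries of batch 2 and -0.08 to 0.13 in batch 1.

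Of the 68 members, 54 lie in the cluster on chromosome 6p, 11 at 1q21, 2 at 1q42 and 1, H4C16, on chromosome 12. There were 6 members without a count in any library (H1-3, H2AC25, H2BC9, H3C7, H3C8 and H4C6), and 7 more had 1 to 19 counts in all 19 libraries together. The filter on low counts left 52 members in batch 1 and 51 in batch 2. Per length of transcript, the highest mean levels over all libraries were 330 CPM per kb for the core histone gene H2BC12, 211 for the linker histone gene H1-2 and 204 for H2AC6. The lengths are RefSeq spans under 1000 bases and otherwise GENCODE transcripts, and they set the order: the H2BC12 model has 381 bases, nearly all coding, which raises its value per kb, and H2AC6 was divided by 519 bases although GENCODE also holds a transcript of 1668 bases. The H3 class was led by H3C2 at 55.7 and H3C15 at 54.8, and the H4 class by H4C12 at 96.8 and H4C3 at 77.3 CPM per kb. Polyadenylated transcripts have been described for 6 members: H1-2, H2AC6, H2BC4, H2BC5, H2BC12 and H2BC21. That list of 6 was drawn up from general knowledge with earlier results of these data known.

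Some members are near-identical copies whose reads could not be kept apart. H3C14 with H3C15, and H4C14 with H4C15, share identical GENCODE transcripts. H4C11 and H4C12 have promoters that are 98.3% identical, and H2AC18 and H2AC19 lie in the same duplicated region at 1q21. Single values of these 8 genes moved between libraries of a group, in the median over groups, more than their sums. In batch 1, H4C14 was 14.6, 52.4 and 37.6 CPM in the batch 1 siNC libraries and H4C15 was 53.0, 20.8 and 34.1 CPM, but the sums were 67.7, 73.1 and 71.7 CPM. The median coefficient of variation within groups was 41.3% for H4C14, 42.5% for H4C15 and 4.27% for their sum, against 14.3% over the 51 members with enough counts. For H2AC18 and H2AC19 it was 31% and 53.3% alone and 8.25% summed. The sums were less steady in some groups, where their coefficient of variation reached 24.3% for H2AC18 with H2AC19, 38.4% for H3C14 with H3C15, 32.7% for H4C11 with H4C12 and 21.3% for H4C14 with H4C15. Fold changes of the pairs are given as sums below, a choice made after seeing the data. Levels per library, counts of members called and medians over members take each copy singly, so they carry this exchange of reads.

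The 3 members of each class with the highest level per length are given here in every library, in the order of the replicates, with their GRCh38.p14 position. H1-2 (linker histone, chr6:26055740-26056470) stood at 168, 168 and 176 CPM in the siNC libraries of batch 1, 181, 203 and 193 after ADAR siRNA and 147, 164 and 164 after ADARB1 siRNA. H1-2 in batch 2 stood at 157, 192 and 203 CPM in siNC, 98.1 and 126 with IFNa, 148, 105 and 107 with BX795 and 116 and 118 with BX795 and ADAR siRNA. Every treated library of batch 2 lay below every control. H1-4 (linker histone, chr6:26156329-26157115) stood at 88.5, 93.4 and 92.2 CPM in the siNC libraries of batch 1, 97.2, 119 and 112 after ADAR siRNA and 80.6, 92.8 and 86.2 after ADARB1 siRNA. H1-4 in batch 2 stood at 56.4, 86.2 and 81 CPM in siNC, 30.8 and 40 with IFNa, 45.3, 28.4 and 29.7 with BX795 and 28.9 and 27.1 with BX795 and ADAR siRNA. The same held for H1-4. H1-5 (linker histone, chr6:27866792-27867588) stood at 16.1, 15.1 and 16 CPM in the siNC libraries of batch 1, 17.7, 23.2 and 23.7 after ADAR siRNA and 13.2, 13.8 and 12.5 after ADARB1 siRNA. H1-5 in batch 2 stood at 8.83, 15.9 and 13.3 CPM in siNC, 2.05 and 3.18 with IFNa, 5.48, 2.8 and 3.27 with BX795 and 1.46 and 1.43 with BX795 and ADAR siRNA. In proportion, it had the widest range of these 3 genes in batch 2.

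H2AC6 (core H2A, chr6:26124172-26124690) stood at 88, 89.2 and 92.1 CPM in the siNC libraries of batch 1, 94.2, 94.9 and 93.2 after ADAR siRNA and 93.7, 103 and 100 after ADARB1 siRNA. H2AC6 in batch 2 stood at 107, 116 and 122 CPM in siNC, 126 and 131 with IFNa, 116, 119 and 110 with BX795 and 105 and 114 with BX795 and ADAR siRNA. All its batch 2 values lay between 105 and 131 CPM. H2BC12 (core H2B, chr6:27138293-27146858) stood at 128, 138 and 132 CPM in the siNC libraries of batch 1, 140, 167 and 165 after ADAR siRNA and 142, 153 and 152 after ADARB1 siRNA. H2BC12 in batch 2 stood at 115, 104 and 102 CPM in siNC, 110 and 104 with IFNa, 109, 107 and 110 with BX795 and 102 and 111 with BX795 and ADAR siRNA. Its batch 2 groups all overlapped. H2BC4 (core H2B, chr6:26113170-26123926) stood at 43.3, 44.3 and 46.6 CPM in the siNC libraries of batch 1, 56.1, 65.5 and 66.3 after ADAR siRNA and 41.2, 45.5 and 47.2 after ADARB1 siRNA. H2BC4 in batch 2 stood at 20.7, 19 and 19.1 CPM in siNC, 21.5 and 17.3 with IFNa, 29, 34.3 and 32.4 with BX795 and 22.6 and 32.8 with BX795 and ADAR siRNA. With BX795 every library lay above every control. H2BC11 (core H2B, chr6:27132316-27132795) stood at 23.4, 21.4 and 21.8 CPM in the siNC libraries of batch 1, 32.1, 41.7 and 39.8 after ADAR siRNA and 22.5, 22.7 and 21.7 after ADARB1 siRNA. H2BC11 in batch 2 stood at 12.5, 18.7 and 16.6 CPM in siNC, 13.1 and 15 with IFNa, 11.1, 10.1 and 8.48 with BX795 and 10.6 and 10.1 with BX795 and ADAR siRNA. With BX795, alone or with ADAR siRNA, every library lay below every control.

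H3C2 (core H3, chr6:26031589-26032099) stood at 36.1, 39.6 and 39 CPM in the siNC libraries of batch 1, 57.7, 70.6 and 73.5 after ADAR siRNA and 33.8, 36.1 and 34.4 after ADARB1 siRNA. H3C2 in batch 2 stood at 19.1, 30.7 and 21.7 CPM in siNC, 7.91 and 9.85 with IFNa, 10.5, 6.58 and 6.8 with BX795 and 2.61 and 3.75 with BX795 and ADAR siRNA. It was highest after ADAR siRNA in batch 1 and lowest with BX795 and ADAR siRNA in batch 2. H3C10 (core H3, chr6:27810051-27810536) stood at 20.2, 20.7 and 20.8 CPM in the siNC libraries of batch 1, 26.2, 30.6 and 28.7 after ADAR siRNA and 18.3, 20.2 and 18.6 after ADARB1 siRNA. H3C10 in batch 2 stood at 22.4, 37.4 and 27.7 CPM in siNC, 9.89 and 15 with IFNa, 15.3, 8.66 and 8.58 with BX795 and 6.3 and 5.6 with BX795 and ADAR siRNA. Its highest group in batch 1 and its lowest in batch 2 were those of H3C2. H4C3 (core H4, chr6:26103933-26104337) stood at 46.8, 49.8 and 49.1 CPM in the siNC libraries of batch 1, 49.4, 52 and 53.7 after ADAR siRNA and 40.8, 40.9 and 43.5 after ADARB1 siRNA. H4C3 in batch 2 stood at 20.5, 22.4 and 19.6 CPM in siNC, 10.6 and 11.1 with IFNa, 18.7, 17.9 and 16.9 with BX795 and 14.3 and 16.6 with BX795 and ADAR siRNA. Again no treated library of batch 2 reached a control.

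The other genes of this rule are near-identical copies. H2AC18 (core H2A, chr1:149842218-149842750) stood at 61.4, 70.1 and 36.6 CPM in the siNC libraries of batch 1, 73, 88.4 and 101 after ADAR siRNA and 57.6, 53.8 and 63.4 after ADARB1 siRNA. H2AC18 in batch 2 stood at 60.1, 32.9 and 72.7 CPM in siNC, 54.8 and 64.3 with IFNa, 59, 26.8 and 55.4 with BX795 and 11.5 and 23.3 with BX795 and ADAR siRNA. Within each group of batch 1 it was lowest where H2AC19 was highest. H2AC19 (core H2A, chr1:149851061-149851594) stood at 20.3, 9.42 and 44.5 CPM in the siNC libraries of batch 1, 26.3, 24.4 and 13.5 after ADAR siRNA and 24.7, 32.7 and 18.7 after ADARB1 siRNA. H2AC19 in batch 2 stood at 31.7, 117 and 46.4 CPM in siNC, 14.9 and 32.8 with IFNa, 22.6, 38.2 and 9.08 with BX795 and 49.3 and 30.8 with BX795 and ADAR siRNA. The groups overlapped in each batch. H3C15 (core H3, chr1:149852608-149853125) stood at 33.4, 35.7 and 35.6 CPM in the siNC libraries of batch 1, 44, 61.6 and 54.4 after ADAR siRNA and 27.6, 33 and 36.1 after ADARB1 siRNA. H3C15 in batch 2 stood at 26.8, 51.4 and 32.1 CPM in siNC, 10.4 and 15.8 with IFNa, 18.4, 7.78 and 10.1 with BX795 and 0 and 4.79 with BX795 and ADAR siRNA. It was at 0 in a library where its copy H3C14 was not. H4C12 (core H4, chr6:27831174-27831560) stood at 56, 64.9 and 64.8 CPM in the siNC libraries of batch 1, 62.6, 84.9 and 80 after ADAR siRNA and 50.5, 64.2 and 52.1 after ADARB1 siRNA. H4C12 in batch 2 stood at 17.8, 32.1 and 11.5 CPM in siNC, 9.66 and 19.2 with IFNa, 8.08, 12.8 and 6.53 with BX795 and 4.15 and 10.3 with BX795 and ADAR siRNA. H4C14 (core H4, chr1:149832657-149833052) stood at 14.6, 52.4 and 37.6 CPM in the siNC libraries of batch 1, 35, 19.6 and 64.3 after ADAR siRNA and 28.3, 33.6 and 25.1 after ADARB1 siRNA. H4C14 in batch 2 stood at 32.9, 41 and 16.5 CPM in siNC, 32.5 and 34.8 with IFNa, 11.7, 25.1 and 8.85 with BX795 and 14.8 and 15 with BX795 and ADAR siRNA. H4C12 and H4C14 varied within some groups, such as the siNC libraries of batch 2, and were steadier in others.

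After ADAR siRNA without BX795 (n = 3 against 3), the histone genes rose together. Of 52 tested members, 31 rose, and the median log2 fold change was 0.33 against -0.01 for all genes. No member fell (2 at an unadjusted p below 0.05; 1 by DESeq2). In the same fit 20.2% of all tested genes were called higher and 17.6% lower (edgeR's quasi-likelihood test, Benjamini-Hochberg adjusted p below 0.05). All classes took part: 3 of 3 tested H1, 10 of 14 H2A, 8 of 13 H2B, 6 of 10 H3 and 4 of 12 H4 genes rose. All members together summed to 1375 to 1436 CPM in siNC and 1608 to 1870 CPM after ADAR siRNA, so that the groups did not overlap.

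H3C2, a core H3 gene on 6p, had the smallest p of all members. It stood at 36.1, 39.6 and 39 CPM in siNC and at 57.7, 70.6 and 73.5 CPM after ADAR siRNA, a log2 fold change of 0.81 ± 0.07 (SE, adjusted p = 5.74e-07). H2BC11 rose from 23.4, 21.4 and 21.8 CPM to 32.1, 41.7 and 39.8 CPM (0.77 ± 0.08, adjusted p = 2.11e-06). H2AC11, its head-to-head neighbour on 6p, rose from 22.4, 20.5 and 22.1 CPM to 30.7, 37.6 and 35.3 CPM (0.67 ± 0.07, adjusted p = 4.54e-06). In all 3 genes every ADAR siRNA library lay above every control, and ADAR siRNA replicate 1 was the lowest of its group.

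In these classes the next smallest p belonged to H2AC13 (0.71 ± 0.09), H2BC18 (0.41 ± 0.05) and H3C10 (0.47 ± 0.06). H4C2 rose by 0.34 ± 0.06 and H4C4 by 0.31 ± 0.10, the H4 genes with the smallest p. Among the linker histones H1-5 stood at 16.1, 15.1 and 16 CPM in siNC and 17.7, 23.2 and 23.7 CPM after ADAR siRNA (0.44 ± 0.09, adjusted p = 0.00121), and H1-4 rose by 0.26 ± 0.07. The H2A gene with the highest level per length as computed here did not pass the test: H2AC6 was 88.0, 89.2 and 92.1 CPM in siNC and 94.2, 94.9 and 93.2 CPM after ADAR siRNA (0.07 ± 0.04, adjusted p = 0.206). H2BC21 had a value of 0.07 ± 0.05 (adjusted p = 0.284). Summed copies rose as well, by 0.43 ± 0.05 for H2AC18 with H2AC19, 0.66 ± 0.07 for H3C14 with H3C15, 0.30 ± 0.06 for H4C11 with H4C12 and 0.32 ± 0.05 for H4C14 with H4C15 (adjusted p of at most 0.00165). A fit over both batches together called 15 members higher. The call for H4C4 was lost without any of 4 single libraries (siNC replicates 1 and 3, ADAR siRNA replicates 2 and 3; adjusted p up to 0.141).

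Genes that work with the histones were read from lists that were also chosen with earlier results known. Of 49 DNA replication genes 44 rose and none fell (median 0.42), among them CLSPN, a checkpoint mediator at replication forks (1.18 ± 0.07), and DTL, an adaptor of the ubiquitin ligase that degrades CDT1 (0.79 ± 0.05). Of 24 G2 and M phase genes 15 rose and none fell (median 0.42), led by the spindle motor KIF11 (0.88 ± 0.07). Among 22 tested genes of histone mRNA transcription, 3′ end processing and decay, 8 rose and 1 fell: LSM11, a subunit of the U7 snRNP that cuts the histone mRNA, rose by 0.92 ± 0.09, and SLBP by 0.43 ± 0.06. Of 22 histone chaperones 14 rose and 2 fell, with ASF1B, a carrier of H3 and H4, at 0.80 ± 0.09 and HJURP, which loads the centromeric H3 CENPA, at 1.03 ± 0.11. Of 11 tested histone variants outside the rule 5 rose and 1 fell: H3-3A rose by 0.69 ± 0.04 and H3-3B rose by 0.34 ± 0.03. Biliary and progenitor markers moved at the same time, summing to 332 to 367 CPM in siNC and 784 to 814 CPM after ADAR siRNA, with 5 of 7 tested members higher (KRT19 by 1.24 ± 0.05). Hepatocyte markers summed to 64536 to 69415 CPM and 48902 to 52100 CPM, a sum to which ALB gave the most. By edgeR at an unadjusted p below 0.05, 5 of these 10 markers were lower and 2 higher. The part of such shifts in the histone result was not tested, and in bulk RNA a change in the number of cells that make histone mRNA and a change in the amount per cell cannot be told apart.

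**Figure D1:**
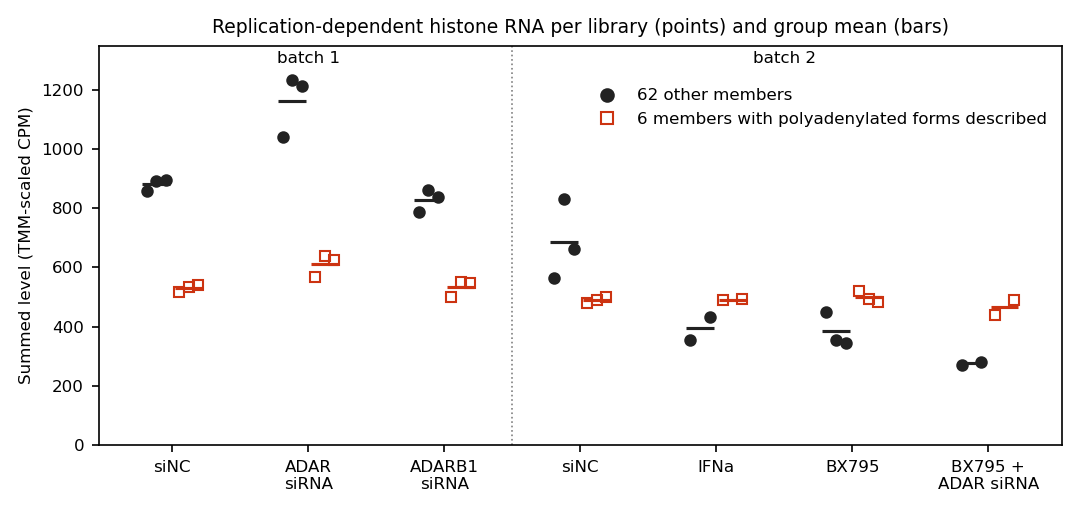
Summed level of the members per library (vertical axis, TMM-scaled CPM, scaled within each batch) by group (horizontal axis). Squares are the 6 members with polyadenylated forms described, dots the other 62, and bars the group means. In batch 2 the squares stay between 441 and 520 CPM while the dots go from 566 to 830 CPM in siNC to 271 to 280 CPM with BX795 and ADAR siRNA.

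After ADARB1 siRNA (n = 3 against 3), few members changed. Of 52 tested members 1 rose and 4 fell, and the median log2 fold change was -0.11. Of all genes 8.25% were called higher and 8.45% lower. H2AC6 rose from 88.0, 89.2 and 92.1 CPM to 93.7, 103 and 100 CPM (0.14 ± 0.04, adjusted p = 0.0262). H2BC21 fell from 58.6, 64.2 and 63.8 CPM to 48.3, 53.8 and 48.8 CPM (-0.31 ± 0.05, adjusted p = 0.000788). H4C3 fell from 46.8, 49.8 and 49.1 CPM to 40.8, 40.9 and 43.5 CPM (-0.22 ± 0.04, adjusted p = 0.00292). In each of these genes the libraries of both groups did not overlap. H4C16 on chromosome 12 fell by 0.41 on the log2 scale and H4C4 by 0.34, so that 3 of the 4 lower calls were H4 genes. All members together summed to 1362 ± 64.1 CPM (SD, n = 3), against 1413 ± 32.9 CPM (SD, n = 3) in siNC.

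The cell cycle lists moved apart after ADARB1 siRNA. Of 24 G2 and M phase genes 17 fell and none rose (median -0.38), with the mitotic kinase PLK1 at -0.87 ± 0.11 and cyclin B1 (CCNB1) at -0.67 ± 0.10. Of 49 DNA replication genes 8 rose and 3 fell (median 0.01), and the ribonucleotide reductase subunit RRM2 fell by 0.80 on the log2 scale. SLBP fell by 0.45 and UPF1, a helicase needed for histone mRNA decay, by 0.36. The counts of histone calls are small, and the share of members called was no larger than that of all genes in either direction. They also moved with the fit: 1 fit over both batches called none higher and 1 lower, and DESeq2 called 2 higher and 5 lower. By edgeR at an unadjusted p below 0.05, 3 members were higher and 14 lower. The share of all genes at this unadjusted threshold is not given here, so these 2 counts cannot be set against it.

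Compared directly (n = 3 against 3), 34 of 52 members were higher and 1 lower after ADAR than after ADARB1 siRNA, with a median of 0.46 (18.8% and 16.9% of all genes). This comparison shares its ADAR libraries with the comparison against siNC. H3C2 differed by 0.95 ± 0.07 (adjusted p = 1.54e-07), H2AC13 by 0.85 ± 0.09 and H2BC11 by 0.76 ± 0.08. The exception was H3C6, a replication-dependent H3 gene with a RefSeq span over 1000 bases. It stood at 11.4, 10 and 10.5 CPM after ADAR siRNA and 13.4, 12.9 and 12.8 CPM after ADARB1 siRNA (-0.30 ± 0.07, adjusted p = 0.00236). H2AC6 and H2BC12 differed by -0.07 ± 0.04 and 0.08 ± 0.06, neither called (adjusted p = 0.191 and 0.365).

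With IFNa (n = 2 against 3), H1, H2A, H3 and H4 genes fell against the siNC libraries of batch 2, and the H2B gene H2BC21 rose. Of 51 tested members 25 fell and 1 rose, and the median log2 fold change was -0.90 against -0.02 for all genes. Of all genes 11.9% were called higher and 10.9% lower. With upper quartile scaling the split over all genes went from 2457 higher and 2248 lower to 1921 and 2659. H1 (3 of 3), H2A (10 of 14), H3 (6 of 10) and H4 (6 of 12) held the falls, and none of 12 tested H2B genes was called lower. Whether H2B differed from the other classes was not tested.

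H1-5 stood at 8.83, 15.9 and 13.3 CPM in siNC and 2.05 and 3.18 CPM with IFNa (-2.28 ± 0.34, adjusted p = 0.0024). H4C3 went from 20.5, 22.4 and 19.6 CPM to 10.6 and 11.1 CPM (-0.94 ± 0.12, adjusted p = 0.000996). H4C2 went from 16.5, 29.1 and 18.8 CPM to 5.80 and 7.18 CPM (-1.72 ± 0.23, adjusted p = 0.00129). These genes did not overlap between groups, and the controls themselves were spread, with replicate 2 highest. H3C2 fell by 1.43 and H3C11 by 1.85 on the log2 scale, and H2AC13 by 1.80. H2AC20, which faces H2BC21 at 1q21, fell by 0.90 on the log2 scale (adjusted p = 0.00129), from 21.6, 25.5 and 25.5 CPM to 13.1 and 12.7 CPM. H2BC21 itself rose from 69.8, 49.0 and 46.6 CPM to 118 and 101 CPM (0.99 ± 0.16, adjusted p = 0.00386). Among the other genes with polyadenylated forms H2BC12 had a value of 0.00 ± 0.09, H2BC4 -0.01 ± 0.16 and H2AC6 0.16 ± 0.09, while H1-2 fell by 0.71.

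These calls rest on few libraries: without IFNa replicate 1 the test called 3 members lower and H2BC21 no longer rose (adjusted p = 0.0653), and without siNC replicate 2 it called 14 members lower. Other RNAs that lack a poly(A) tail moved the same way, with 4 of 11 lower and a median of -0.82 (RNU4-2 at -1.20 ± 0.34), as did the GC trend. With a correction for GC content, which left H2AC18, H2AC19, H3C2 and H3C3 unadjusted because their GC content was unknown (47 of 51 members had a value), the median was -0.56, and 18 members were called lower and 1 higher. The part of tail-less RNA in the result was not tested. Biliary and progenitor markers summed to 216 to 302 CPM in siNC and 167 to 194 CPM with IFNa, with 1 of 6 higher and 2 lower (KRT19 at -0.79 ± 0.18). Hepatocyte markers summed to 13351 to 15995 CPM and 12482 to 13258 CPM, with 4 of 10 lower (SERPINA1 at -0.57 ± 0.13). The part of these markers was not tested. Among the cell cycle lists 7 of 49 DNA replication genes fell and 1 rose (median -0.18; the helicase subunit GINS4 fell by 1.53), and of 24 G2 and M phase genes none was called by edgeR (2 lower at an unadjusted p below 0.05; median -0.02). NPAT, the coactivator of histone gene transcription, rose by 0.85 ± 0.19 and POU2F1 by 1.04 ± 0.13. The variant H2AZ2 fell by 1.02 on the log2 scale.

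**Figure D2:**
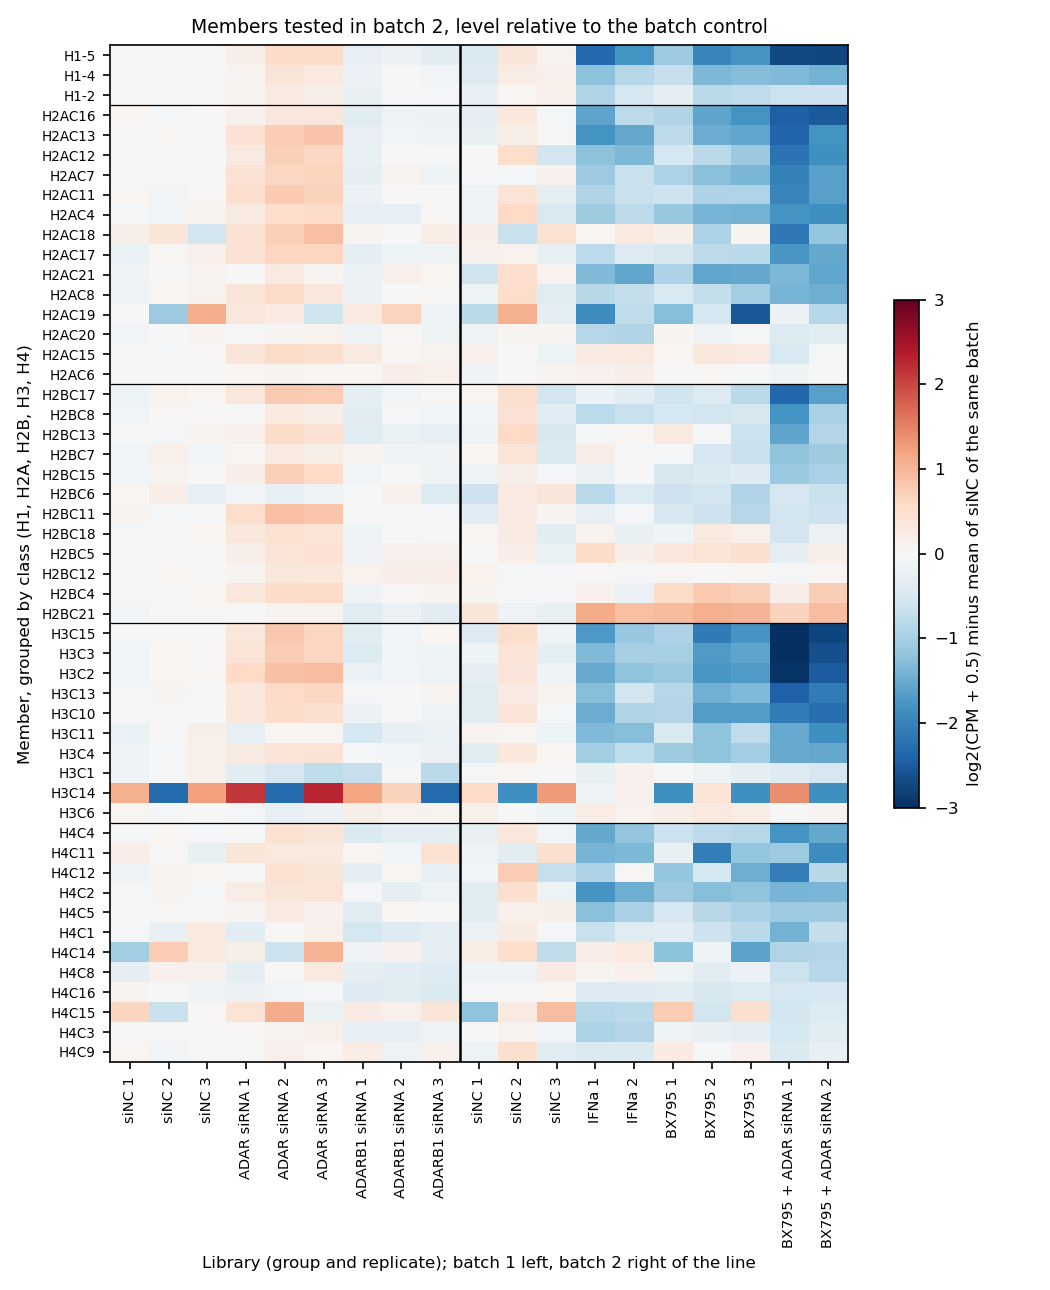
Level of each of the 51 members tested in batch 2 (rows, by class) in each of the 19 libraries (columns), as log2(CPM + 0.5) minus the mean of the siNC libraries of the same batch; red is higher and blue is lower. Most rows are red in the ADAR siRNA libraries and blue in the treated libraries of batch 2, while H2BC21 and H2BC4 are red with BX795; rows such as H3C14 and H4C15 change from library to library.

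With BX795 (n = 3 against 3), members of all 5 classes fell, and a pair of H2B genes rose. Of 51 tested members 28 fell and 2 rose, and the median log2 fold change was -0.83. Of all genes 20.2% were called higher and 21.9% lower. This comparison shares its controls with those of IFNa and of BX795 with ADAR siRNA. H1 (3 of 3), H2A (10 of 14), H3 (6 of 10) and H4 (6 of 12) genes fell, together with 3 of 12 H2B genes. The genes that rose, H2BC21 and H2BC4, went against most called members of their class.

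H3C2 stood at 19.1, 30.7 and 21.7 CPM in siNC and 10.5, 6.58 and 6.80 CPM with BX795 (-1.58 ± 0.23, adjusted p = 0.000775). H1-5 stood at 5.48, 2.80 and 3.27 CPM with BX795 (-1.72 ± 0.28, adjusted p = 0.0014). H4C2 stood at 9.53, 8.33 and 8.71 CPM (-1.27 ± 0.19, adjusted p = 0.000951). BX795 replicate 1 was the highest of its group in all 3 genes, and none of its libraries reached a control. H2AC7 fell by 1.39 on the log2 scale, H2AC4 by 1.66, H3C4 by 1.18, H4C5 by 0.81, H2BC11 by 0.68 and H2BC15 by 0.48. H2BC21 stood at 105, 115 and 110 CPM with BX795, above all 3 controls (0.99 ± 0.15, adjusted p = 0.000818). H2BC4 rose from 20.7, 19 and 19.1 CPM to 29, 34.3 and 32.4 CPM (0.70 ± 0.14, adjusted p = 0.00378). H2AC6, which faces H2BC4 on 6p, was 107, 116 and 122 CPM in siNC and 116, 119 and 110 CPM with BX795 (0.00 ± 0.08), a value that became -0.29 and was called (adjusted p = 0.0291) after the GC correction.

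The summed copies fell by 0.78 (H2AC18 with H2AC19), 1.61 (H3C14 with H3C15), 1.09 (H4C11 with H4C12) and 0.48 (H4C14 with H4C15) on the log2 scale, with adjusted p of at most 0.019. Here, too, other RNAs without a poly(A) tail were lower (7 of 11, median -1.04; RNU4-1 at -1.84 ± 0.37). Mitochondrial mRNA was 1.62% to 3.20% of counts in siNC and 4.52% to 4.77% with BX795. With the GC correction the median was -0.53, and 20 members were called lower and 5 higher. Of 49 DNA replication genes 21 fell and none rose (MCM4, a helicase subunit, by 0.71), and of 24 G2 and M phase genes 18 fell and none rose (BIRC5 by 1.60). Of the transcription, processing and decay list 9 rose and 7 fell: TUT7, which adds uridines to histone mRNA, rose by 0.70 ± 0.10, and E2F1, a driver of S phase genes, fell by 1.35. H2AX, the variant that marks DNA breaks and also has a stem-loop mRNA, fell by 1.39. The chaperone TONSL, which reads newly made H4, fell by 1.13. Biliary and progenitor markers summed to 216 to 302 CPM in siNC and 121 to 139 CPM with BX795, a sum to which KRT19 gave the most. They did not fall as a set: by edgeR at an unadjusted p below 0.05, 2 of 6 tested markers were higher and 3 lower. Their part in the result was not tested.

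**Figure D3:**
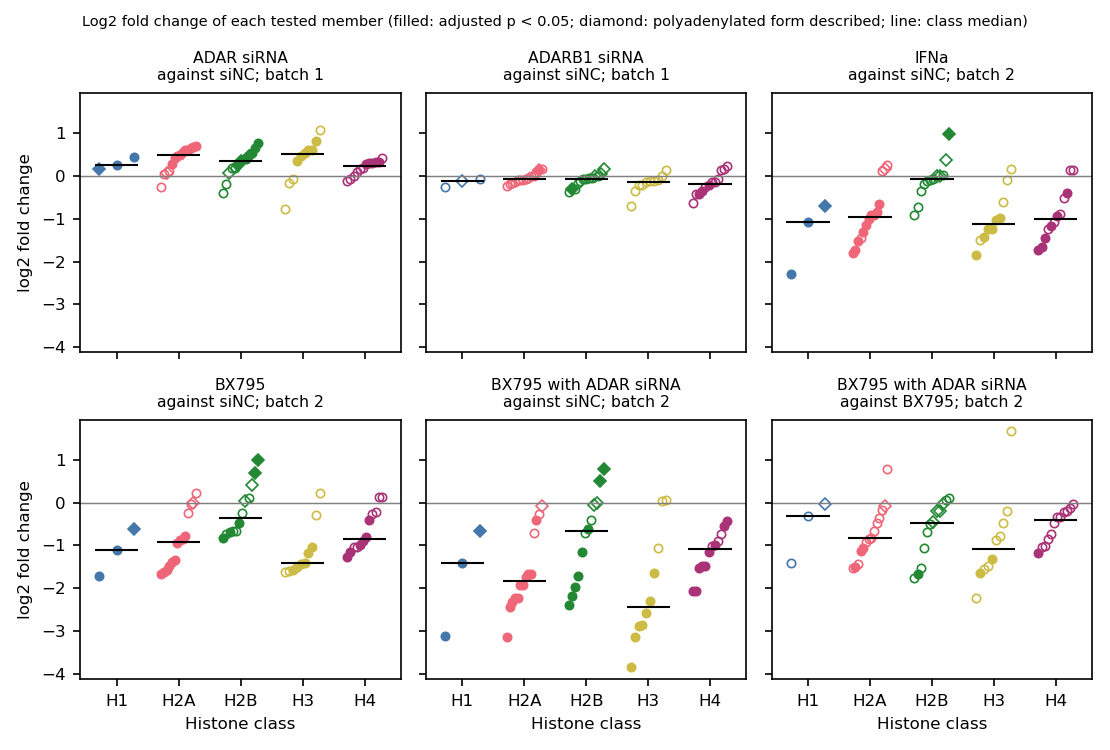
Log2 fold change of each tested member (vertical axis) by histone class (horizontal axis) in 6 comparisons. Filled symbols passed an adjusted p of 0.05, diamonds are genes with polyadenylated forms described, and lines are class medians; class medians with BX795 and ADAR siRNA against siNC run from -2.44 (H3) to -0.66 (H2B).

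With BX795 and ADAR siRNA together (n = 2 against 3), all members summed to 713 to 770 CPM, below the other groups of batch 2. The H2B genes did not follow this order in sum, at 220 to 258 CPM in siNC, 277 to 306 with IFNa, 292 to 309 with BX795 and 245 to 286 with both, a sum to which H2BC12 and H2BC21 gave the most. Of 51 tested members 36 fell and 2 rose against siNC, with a median of -1.49 (16.9% of all genes called higher and 16% lower). The class medians were -2.44 for H3, -1.83 for H2A, -1.41 for H1, -1.09 for H4 and -0.66 for H2B. H3C2 stood at 2.61 and 3.75 CPM against 19.1 to 30.7 CPM in siNC (-2.89 ± 0.29, adjusted p = 7.15e-05). H3C3 stood at 1.61 and 2.5 CPM against 14.7 to 24.1 CPM (-3.15 ± 0.32, adjusted p = 7.67e-05). H1-5 stood at 1.46 and 1.43 CPM (-3.12 ± 0.36, adjusted p = 0.000184). In these genes the treated libraries lay far below every control. H2AC17 fell by 1.92, H2AC11 by 1.92, H2BC17 by 2.40, H2BC15 by 1.16, H4C4 by 2.06, H4C2 by 1.47 and H1-4 by 1.41 on the log2 scale. The summed copies fell by 3.09 for H3C14 with H3C15, 1.51 for H4C11 with H4C12, 1.07 for H2AC18 with H2AC19 and 0.91 for H4C14 with H4C15.

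H2BC21 stood at 87.5 and 103 CPM (0.79 ± 0.16, adjusted p = 0.00425) and H2BC4 at 22.6 and 32.8 CPM (0.50 ± 0.16, adjusted p = 0.0331). Both lay above every control, though neither rose without BX795 with ADAR siRNA replicate 2 (adjusted p = 0.0639 and 0.451). H2BC12 stood at 102 and 111 CPM (-0.00 ± 0.09), and at 0.51 with a call after the GC correction (adjusted p = 0.0413). The 6 genes with polyadenylated forms had a median of -0.03, with 2 higher and 1 lower (H1-2, by 0.65), against -1.66 for the 45 tested members outside that list, of which 35 fell and none rose. Their summed level was 479 to 501 CPM in siNC, 489 to 492 with IFNa, 483 to 520 with BX795 and 441 to 489 with BX795 and ADAR siRNA. The other 62 members summed to 566 to 830, 355 to 433, 346 to 450 and 271 to 280 CPM in the same order. The 6 genes thus made up 37.2% to 45.9% of the members' summed CPM in siNC and 53.2% to 57.9% with IFNa. They made up 53.6% to 58.2% with BX795 and 61.9% to 63.6% with both. In batch 1 they made up 37.5% to 37.7% in siNC, 34.1% to 35.3% after ADAR siRNA and 38.8% to 39.5% after ADARB1 siRNA. These are shares of counts, not corrected for transcript length, and not shares of mRNA molecules. The 8 members with a RefSeq span of 1000 bases or more, of which 4 are on that list and include both that rose, had a median of -0.03 (2 rose, 1 fell), and the 43 others tested had -1.66 (none rose, 35 fell). This split depends on the annotation. Among the 43 others, GENCODE holds transcripts of 2250 bases for H2AC11 and 4137 bases for H2BC15, which both fell. It also holds one of 1668 bases for H2AC6, which was not called. With the GC correction, again without a GC value for 4 members, the median was -1.23, with 32 called lower and 3 higher. No GC-corrected median is given for the 6 genes with polyadenylated forms or for the split by RefSeq span. Of these genes H2AC6, H2BC4, H2BC5 and H2BC21 have a lower GC content than H1-2, which fell, and than H2BC12. Outside that list H2AC11 and H2BC15, which fell, also have a lower GC content than H1-2. The part of GC content in both splits was not tested. Other RNAs without a poly(A) tail had a median of -0.83, with 2 of 11 lower. Hepatocyte markers summed to 13351 to 15995 CPM in siNC and 10276 to 12905 CPM with both, with 6 of 10 lower and 2 higher. Biliary and progenitor markers summed to 216 to 302 CPM and 204 to 243 CPM, with 3 of 6 higher and 2 lower. Their part in the result was not tested. The counts do not tell stem-loop ends from polyadenylated ends of a gene.

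The members were also split by the octamer and by cluster. The genes with the octamer include H2AC6, H2BC4, H2BC12 and H2BC21, which have polyadenylated forms described, so this split is not separate from that one. Among H2A and H2B genes, those with the octamer had a median of -1.69 with BX795 and ADAR siRNA (18 tested, 12 fell, 2 rose) and those without it -1.16 (7 tested, 4 fell, none rose). After ADAR siRNA alone the medians were 0.29 and 0.50. H2BC21, with an octamer, rose in all 3 comparisons with the batch 2 siNC, and H2BC17, with an octamer elsewhere in its 250 bases, fell with BX795 and ADAR siRNA. The clusters on 6p (39 tested, 30 fell, 1 rose) and 1q21 (11 tested, 5 fell, 1 rose) had medians of -1.65 and -0.72, and the 1q21 cluster holds most of the near-identical copies. Head-to-head genes share most of their searched bases, so the octamer split does not count separate promoters. Neither split was tested.

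Within BX795 (n = 2 against 3), histone mRNA was lower still with ADAR siRNA. If the cells with BX795 alone were not given control siRNA, which is not stated, transfection and the ADAR siRNA cannot be told apart here. Of 51 tested members 7 fell and none rose (none at an unadjusted p below 0.05 and none by DESeq2), with a median of -0.68 against 0.01 for all genes, and 1.49% of all genes were called higher and 2.17% lower. The genes that fell were H2AC11, H2AC12, H2AC17, H2BC17, H3C2, H3C3 and H4C4. H2AC17 stood at 4.18, 3.31 and 3.27 CPM with BX795 and 1.46 and 1.76 CPM with BX795 and ADAR siRNA (-1.14 ± 0.23, adjusted p = 0.0173). Its neighbour H2BC17 stood at 3.67, 4.22 and 3.10 CPM and 0.729 and 1.52 CPM (-1.67 ± 0.35, adjusted p = 0.0246). H3C3 stood at 8.83, 5.20 and 5.71 CPM and 1.61 and 2.5 CPM (-1.65 ± 0.31, adjusted p = 0.0134). H3C14 with H3C15 summed fell by 1.48 (adjusted p = 0.0324). H2AC6, H2BC12 and H2BC4 had values of -0.07 ± 0.09, -0.03 ± 0.09 and -0.20 ± 0.16, none called.

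The 7 calls are near the threshold: without BX795 with ADAR siRNA replicate 1 no member was called, without BX795 replicate 1 there was 1, and without BX795 replicate 3 or BX795 with ADAR siRNA replicate 2 there were 3. The GC correction called 16 members lower, DESeq2 15 and 1 fit over both batches 22. Of 11 other RNAs without a poly(A) tail none was called by edgeR, also at an unadjusted p below 0.05, and their median was 0.20. G2 and M phase genes fell in 18 of 24 cases (median -1.27; TOP2A by 1.62, MKI67 by 1.39) and none rose. Of 49 DNA replication genes 4 fell and none rose (median -0.23; RRM2 by 1.74, CDT1, which licenses origins, by 1.36). E2F1 fell by 1.05, and among the chaperones HJURP fell by 1.5 and ASF1B by 1.52. H3-3A rose by 0.56 ± 0.12. Biliary and progenitor markers summed to 121 to 139 CPM with BX795 and 204 to 243 CPM with ADAR siRNA added, with 2 of 6 tested members higher. Hepatocyte markers summed to 16154 to 17281 CPM and 10276 to 12905 CPM, with 2 of 10 lower (FGB at -0.94 ± 0.16 and HNF4A at -0.62 ± 0.12). The part of these markers was not tested.

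Whether the ADAR siRNA response of histone genes differed with and without BX795 was tested in a fit over all 19 libraries. Of 52 tested members 25 had a lower response with BX795 and none a higher one (none at an unadjusted p below 0.05 and none by DESeq2), with a median difference of -0.93 (1.42% of all genes called higher and 2% lower; with upper quartile scaling the split over all genes went from 328 and 462 to 223 and 568). The members with the smallest p were H2AC17 (-1.71 ± 0.23, adjusted p = 0.000284), H2AC11 (-1.68 ± 0.23, adjusted p = 0.000287), H3C2 (-2.08 ± 0.29, adjusted p = 0.000287) and H3C3 (-2.22 ± 0.33, adjusted p = 0.000494). H3C2 was 0.81 ± 0.07 without and -1.31 ± 0.28 with BX795, and H2AC17 was 0.60 ± 0.09 and -1.14 ± 0.23. H2BC11 was 0.77 ± 0.08 and 0.07 ± 0.18, and this difference missed the threshold (adjusted p = 0.063). Of the 31 members that rose without BX795, 30 had a value below 0 with it and 7 were called lower there. The comparisons without and with BX795 share no libraries. In the difference 23 of these 31 were called. That contrast holds the batch 1 libraries by which the 31 were picked, so the 23 are not separate support. The count of 25 members fell to 12 without BX795 with ADAR siRNA replicate 1 and to 16 without ADAR siRNA replicate 2. Presence of BX795 and batch cannot be told apart in this contrast. It is also not stated whether the libraries with BX795 alone were given control siRNA. If they were not, the response with BX795 includes transfection itself, whereas that of batch 1 does not.

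**Figure D4:**
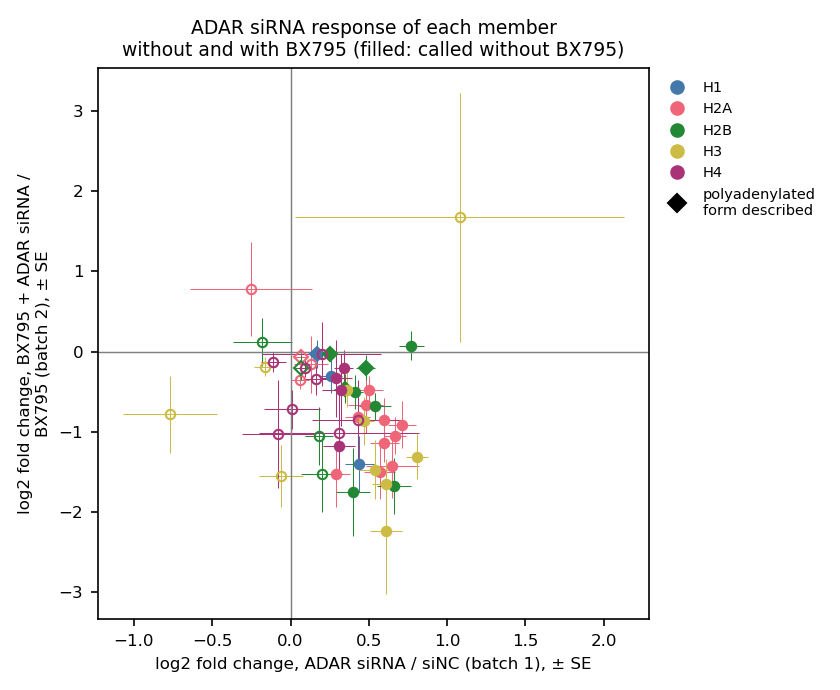
Log2 fold change of each member after ADAR siRNA without BX795 (horizontal axis, batch 1) and with BX795 (vertical axis, batch 2), with SE bars. Filled symbols rose without BX795 and colours are classes; 30 of the 31 filled symbols lie below 0 on the vertical axis.

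The cell cycle lists differed between both settings in the same direction. For DNA replication 23 of 49 genes had a lower response with BX795 (median -0.62; CLSPN by -2.16 ± 0.23), and for G2 and M phase 20 of 24 (median -1.80; MKI67 by -1.82 ± 0.16), with none higher. Among the chaperones HJURP (-2.51 ± 0.25) and ASF1B (-2.29 ± 0.25) were called and 20 of 22 were not. None of 11 histone variants outside the rule was called by edgeR (3 lower at an unadjusted p below 0.05; median -0.16).

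**Figure D5:**
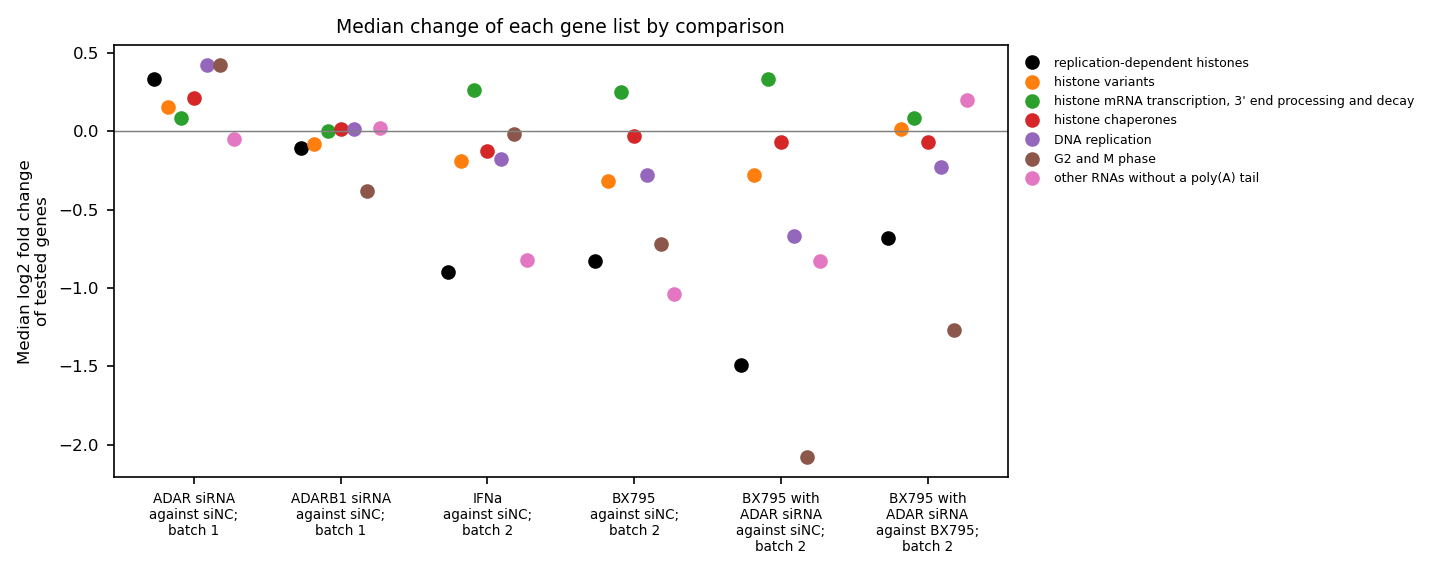
Median log2 fold change of the tested genes of each list (vertical axis) in 6 comparisons (horizontal axis); points carry no error because lists were not tested. The histone median is 0.33 after ADAR siRNA and -1.49 with BX795 and ADAR siRNA, where G2 and M phase genes are at -2.08 and DNA replication genes at -0.67.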

How the data were processed

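The authors deposited a table of expected counts per gene, unscaled, with a column for each library. The submitters' processing notes name STAR, Salmon and GRCh38.p14; versions (other than the build), roles and settings were not stated in the sources. Of the values 94.82% lay within 0.005 of a whole number, and all were rounded (by at most 0.5). Symbols were found for 61463 of 78894 genes.

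Each batch was fitted separately with edgeR 4.0.16 in R 4.3.3 (TMM scaling, filterByExpr defaults, 1 mean per group, quasi-likelihood F test), leaving 21747 and 20718 genes. The interaction used 1 fit of all 19 libraries (23121 genes). P-values were Benjamini-Hochberg adjusted over all tested genes, with calls at an adjusted p below 0.05, and every adjusted p in the text is of this kind. The biological coefficient of variation was 6.68% in batch 1 and 14.2% in batch 2, each with 6 residual degrees of freedom. SE is the absolute log2 fold change divided by the square root of F. Replicates differed beyond sampling noise (chi-square per gene of 5.89 or more), so each was kept. Total counts were 13.1 to 77.1 M per library.

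The members and lists were chosen with earlier results of these data known. Named were the 3 members per class with the highest level per length, up to 2 called members per class and direction and up to 3 called genes per other list with the smallest p, members called against most of their class, and ADAR and ADARB1; others were named after their values were seen. Sequences and promoters are from GENCODE v29 (GRCh38) and RefSeq (GRCh38.p14). Alternatives were no filter, DESeq2 1.42.0 size factors and Wald test, upper quartile scaling, other fits, GC and length corrections, a replicate block and leaving out each library. The fits were tested on simulated data. One gene of the lists is not reported here.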

Additional observations from a re-analysis of the deposited data

Results flagged for a closer look

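The response to ADAR siRNA differed with and without BX795 by a test of the difference itself (edgeR's quasi-likelihood test of the interaction, n = 3, 3, 3 and 2 libraries) for 25 of 52 tested members. Of all genes 1.42% were called higher and 2% lower. Leaving out single libraries gave 12 to 25 members. Those with the smallest p in each class, with the log2 difference and its SE, were H1-5 at -1.81 ± 0.36, H2AC17 at -1.71 ± 0.23, H2AC11 at -1.68 ± 0.23, H2BC17 at -2.29 ± 0.36, H2BC15 at -1.19 ± 0.20, H3C2 at -2.08 ± 0.29, H3C3 at -2.22 ± 0.33 and H4C4 at -1.45 ± 0.27. BX795 and batch cannot be told apart in this contrast, nor can transfection if the cells with BX795 alone were not given control siRNA. No group held 4 or more libraries, and single libraries were not tested as outliers.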

How the results depend on the processing

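Members called higher or lower stayed within 1.5 times the reported counts in the other fits, except as follows. In these cases the cause was not tested, except that leaving out a library also leaves fewer samples. One fit over both batches called 15 members higher after ADAR siRNA (5042 genes in all), 0 higher and 1 lower after ADARB1 siRNA (1066 genes), 22 higher for ADAR against ADARB1 siRNA (4518 genes), 2 higher with IFNa (7932 genes), 4 higher with BX795, and 22 lower with BX795 and ADAR siRNA against BX795 (2201 genes). Without a filter there were 2 lower after ADAR siRNA, 4 higher and 8 lower after ADARB1 siRNA, 2 lower for ADAR against ADARB1 siRNA, 2 higher with IFNa, and 2 higher and 17 lower against BX795 (1287 genes). The GC correction gave 8 lower after ADARB1 siRNA, 2 lower for ADAR against ADARB1 siRNA, 5 higher with BX795 and 16 lower against BX795 (1851 genes). The length correction gave 1 lower after ADAR siRNA and 11 lower against BX795. DESeq2's Wald test gave 1 lower after ADAR siRNA, 2 higher after ADARB1 siRNA 15 lower against BX795 (1276 genes) and 1211 genes for the difference in response. The compared groups alone gave 1 lower after ADAR siRNA, 2 higher after ADARB1 siRNA, 2114 genes with IFNa, and 1 higher with BX795 and ADAR siRNA against siNC (4468 genes).

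Shared replicate numbers did not pair the samples (correlations of same-numbered deviations from -0.22 to 0.27). With the replicate block 2 members were higher after ADARB1 siRNA, 11 lower with IFNa (612 genes), and 1 higher with BX795 and ADAR siRNA against siNC (3955 genes), and 282 genes were called against BX795. With the GC correction and the block 1 was lower after ADAR siRNA, 16 lower after ADARB1 siRNA, 2 lower for ADAR against ADARB1 siRNA, 16 lower with IFNa (1711 genes), 5 higher with BX795 (5058 genes), 1 higher with BX795 and ADAR siRNA against siNC (4221 genes) and 13 lower against BX795.

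Leaving out each library in turn gave 25 to 31 higher and 0 to 2 lower after ADAR siRNA (7052 to 7699 genes), 0 to 1 and 3 to 4 after ADARB1 siRNA (2659 to 3190), 32 to 37 and 1 for ADAR against ADARB1 siRNA (6675 to 7175), 0 to 1 and 3 to 27 with IFNa (263 to 7514), 2 to 3 and 20 to 28 with BX795 (5386 to 9974), 0 to 2 and 27 to 38 with BX795 and ADAR siRNA against siNC (1982 to 8557), 0 and 0 to 5 against BX795 (181 to 453), and 0 and 12 to 25 for the difference in response (384 to 744). Of the values of named members 2395 kept their side of the threshold, 75 gained a call and 158 lost one. The sign of values that were called in neither fit was not followed. Another 3 values gained a call with the other sign. They were H2AC6 with BX795 at -0.29 under the GC correction with and without the block, and H2BC12 at 0.51 with BX795 and ADAR siRNA against siNC under the GC correction. Members under a few CPM in batch 2 rest on few counts.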
